A study of Mus musculus with 6 samples.

Results

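The snoRNAs described here are the small nucleolar RNAs of the H/ACA size class that lie outside ribosomal protein genes and outside a handful of other well-known snoRNA host genes. They were measured in small RNA libraries of lineage-negative (Lin-) mouse bone marrow cells, the fraction depleted of mature blood cells. The members are features annotated as snoRNA in GENCODE M21 (mouse build GRCm38) with the same start and end and a length above 114 nt and up to 170 nt. Features inside a same-strand ribosomal protein gene were left out, as were those hosted by Gas5, Snhg1, Eif4a1, Eif4a2, Nop56, Nop58, Ncl or Dkc1 and those named Snora73 or Snord118. This left 159 members of 1823 listed features, out of 191 listed snoRNAs of that length. Of the 159, 87 lay inside a same-strand protein-coding gene, 16 inside a long non-coding RNA gene and 56 in no annotated host. The groups were 3 libraries of the maternal knockout (KO, "Mat KO" in the labels) and 3 libraries of wild type (WT). The series concerns the imprinted Dlk1-Gtl2 locus, and the sources used here do not give which part of it is deleted, how the cells were depleted, or the age and strain of the mice. Nothing says that the 3 libraries of a genotype came from separate animals, so p-values measure the spread between libraries, which may be technical.

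H/ACA snoRNAs fold into a pair of hairpins joined by a short single-stranded hinge that carries the H box (ANANNA), and they end a few bases after an ACA triplet. Bound by dyskerin and its partner proteins, they pair with a target RNA and direct the change of one uridine to pseudouridine, mostly in ribosomal RNA. In vertebrates most are cut out of the introns of other genes, and they are released when the host transcript is spliced and its introns are trimmed. The host therefore need not share a function with the snoRNA, and several hosts are non-coding genes whose spliced RNA is not translated.

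The members' sequences fitted the size class. The ACA triplet stood exactly 3 bases before the annotated end in 114 of 159 members (71.7%), and an H box was found in the middle part of the sequence in 151 members (95.0%). Among 284 other listed features of the same length that are not snoRNAs, the same search found the ACA in 1.06% and the H box in 42.3%. Among the 206 listed snoRNAs of 60 to 100 nt, the size of C/D snoRNAs, which guide methylation, the ACA was found in 3.88%. By host, the ACA stood at that place in 75.9% of members in coding genes, 75.0% in long non-coding genes and 64.3% of those with no host. One member, Gm22486 inside Ptcd3, carried both a C box (TGATGA) near its start and a D box (CTGA) near its end, and RefSeq names it Snord94, so the length rule took in a C/D snoRNA. The C and D boxes were searched as exact matches, so further C/D snoRNAs could have been missed. The H box was searched as ANANNA on the sense strand only, and a match describes letters and not a working element.

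Only 24 members have a Snora symbol; 133 have a provisional symbol starting with Gm and 2 are named as microRNAs. The 4 most abundant members are printed first, because they held most of the reads. Each sequence is the sense strand of the GENCODE M21 transcript on GRCm38 in DNA letters, 5′ to 3′, with capitals on the H box match nearest the middle and on the ACA near the end. Gm25117 lies in an intron of Nap1l1 (chr10:111481493-111481636, plus strand), which encodes a nucleosome assembly protein. Gm22884 lies in an intron of G3bp1 (chr11:55482694-55482833, plus strand), which encodes a stress granule protein. Gm26130 overlaps an annotated exon of Tcp1 (chr17:12919585-12919722, plus strand), a subunit of the cytosolic chaperonin. Snora61 lies in an annotated exon of the long non-coding Snhg12 (chr4:132310240-132310369, plus strand). Gm22884 and Gm26130 were 85.7% identical although their hosts are unrelated. In both, 7 bases follow the capitalised ACA, so neither was counted as having the ACA exactly 3 bases before the end.
Gm25117: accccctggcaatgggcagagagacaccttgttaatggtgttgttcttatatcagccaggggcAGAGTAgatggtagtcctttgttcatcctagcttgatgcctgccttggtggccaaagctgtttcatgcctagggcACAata
Gm22884: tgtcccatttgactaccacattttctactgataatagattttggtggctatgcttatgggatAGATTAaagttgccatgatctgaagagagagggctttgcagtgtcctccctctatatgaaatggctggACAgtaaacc
Gm26130: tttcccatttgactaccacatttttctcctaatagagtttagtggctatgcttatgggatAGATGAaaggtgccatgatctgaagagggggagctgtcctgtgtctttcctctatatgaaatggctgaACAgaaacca
Snora61: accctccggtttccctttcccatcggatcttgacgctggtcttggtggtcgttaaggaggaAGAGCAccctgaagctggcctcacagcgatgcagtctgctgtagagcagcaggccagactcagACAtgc

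Near copies in different hosts were common. At 90% identity or more, 71 members fell into 26 families of up to 5 members, and 14 members belonged to groups of identical or overlapping features whose reads cannot be assigned safely. An abundant pair of near copies, and a relative below 90% identity to both, sit in 3 different hosts. Gm24233 lies in an intron of Mia2 (chr12:59134072-59134193, plus strand), Gm22786 in an intron of the proteasome subunit gene Psmd1 (chr1:86087301-86087422, plus strand), and Snora26 in an exon of the long non-coding Dancr (chr5:74093530-74093650, plus strand). Gm24233 and Gm22786 differed by 3 edits (97.5% identity), and Gm24233 and Snora26 by 13 edits (89.3%). Gm22786 and Snora26 differed by 16 edits (86.9%). Snora26 also holds the aaagga that is capitalised in Gm24233 and Gm22786, but its capitals mark another match nearer the middle.
Gm24233: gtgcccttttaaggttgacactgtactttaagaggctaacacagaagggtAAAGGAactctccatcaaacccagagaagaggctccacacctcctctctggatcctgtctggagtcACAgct
Gm22786: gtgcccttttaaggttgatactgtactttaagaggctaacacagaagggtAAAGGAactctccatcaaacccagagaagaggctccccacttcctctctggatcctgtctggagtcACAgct
Snora26: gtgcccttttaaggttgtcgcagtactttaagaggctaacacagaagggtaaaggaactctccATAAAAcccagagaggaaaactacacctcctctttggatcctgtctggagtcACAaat

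The KO libraries held 47299957 to 51837721 reads and the WT libraries 45398303 to 53299322. As a check of the labels, 10 snoRNAs of the Dlk1-Dio3 region had 7 reads in the KO libraries together, against 287 reads in the WT libraries, and no member lies in that region. Levels are given as CPM, the read count of a feature scaled by its library's total to a common depth. Of 11 microRNA precursors used as blood cell markers, 10 were listed: the progenitor marker Mir10a had 53.9 to 64.6 CPM in KO and 38.2 to 85.1 CPM in WT, the myeloid marker Mir223 had 13.5 to 21.1 CPM in KO and 8.61 to 19.1 CPM in WT, and the erythroid Mir451a had no read listed in any library. In 2 of the 10, every KO library lay above every WT library: the stem and progenitor marker Mir126a had 5.65 to 17.4 CPM in KO and 0.544 to 5.40 CPM in WT, and the lymphoid marker Mir150 had 4.0 to 6.09 CPM in KO and 0.694 to 3.19 CPM in WT. The part of these markers in the results was not tested. In bulk RNA, fewer cells of a type and less RNA per cell cannot be told apart.

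KO replicate 2 stood apart for these members. It was the lowest of the 6 libraries for 58 of the 89 members that passed the expression filter and the highest for 2. Over all tested features it was the lowest for 241 of 624, and over C/D-length snoRNAs for 40 of 143. Among H/ACA-length snoRNAs inside ribosomal protein genes it was the lowest for 14 of 20. Each member's level in a library was set against its mean over the 6 libraries on the log2(CPM + 0.02) scale. The members' median deviation was -0.63 in KO replicate 2, against -0.06 in KO replicate 1, -0.13 in KO replicate 3, and 0.31, 0.12 and 0.28 in the WT libraries. Over all tested features the median deviation of KO replicate 2 was -0.15, and over C/D-length snoRNAs it was -0.04. The shift of that library was also present in the H/ACA-length snoRNAs inside ribosomal protein genes, with a median deviation of -0.51. The comparisons of the genotypes that follow also give values without it.

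One member held the largest part of the reads. Gm25117 took 74.8% of the 1542768 reads of all members pooled, but its share by library was 86.8%, 43.0% and 58.0% in KO and 47.5%, 71.6% and 80.3% in WT, and the 12 most abundant members took 95.1%. Its level was 10056 CPM in KO replicate 1, 547 in KO replicate 2 and 1698 in KO replicate 3, against 1304, 3212 and 6750 CPM in the WT libraries, listed by replicate number here and throughout. KO replicate 1 was the highest library and KO replicate 2 the lowest, an 18.4-fold span, so the genotypes overlapped completely. The summed level of all members followed it, at 11585, 1271 and 2930 CPM in KO and 2747, 4485 and 8403 CPM in WT. Without Gm25117 the sums were 1529, 724 and 1232 CPM in KO against 1443, 1273 and 1653 CPM in WT, where KO replicate 2 alone lay far below the rest.

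The next 3 members were each lowest in KO replicate 2. Gm22884 had 602, 235 and 462 CPM in KO and 533, 478 and 632 CPM in WT. Gm26130 had 125, 69.2 and 139 CPM in KO and 133, 123 and 141 CPM in WT. Snora61, assigned in human to large-subunit ribosomal RNA, had 197, 30.8 and 71.6 CPM in KO and 87.6, 85.7 and 185 CPM in WT. The genotypes overlapped for all 3. Per 100 nt of annotated length, mean levels over the 6 libraries were 2728 CPM for Gm25117, 350.0 for Gm22884, 88.1 for Gm26130 and 84.2 for Snora61, the same order as by CPM.

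**Figure D1:**
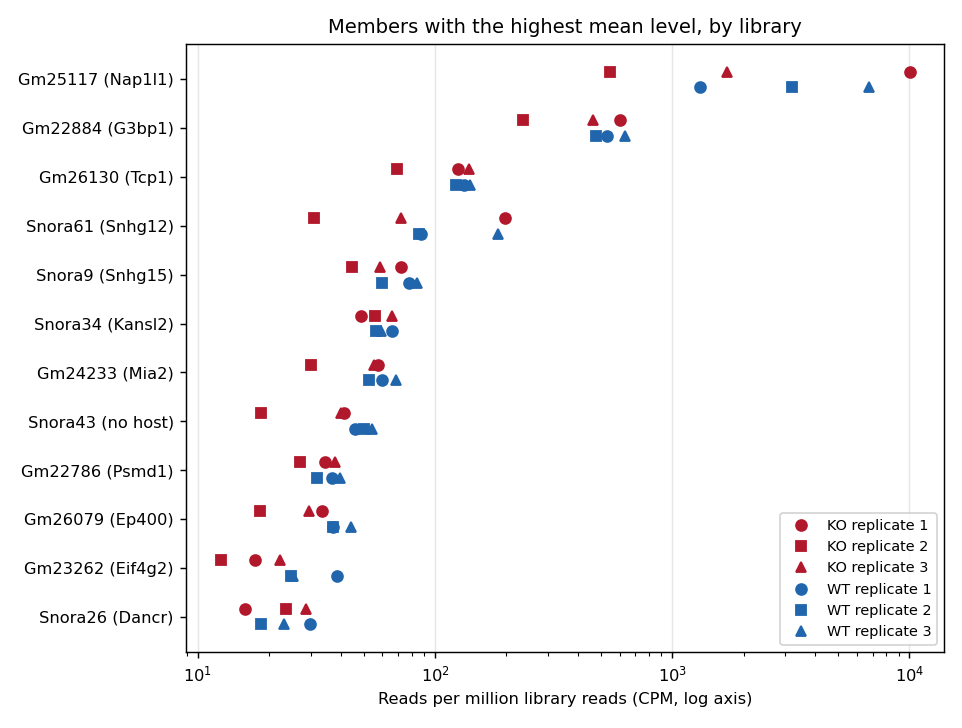
Level of the most abundant H/ACA-length snoRNAs outside ribosomal protein genes in each library, as CPM on a log axis, with the KO libraries (red) drawn above the WT libraries (blue) for each member. Gm25117 spans 547 to 10056 CPM over the 6 libraries, while Snora34 stays between 48.6 and 66.0 CPM.

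Below them the levels fell quickly. Snora9, in an exon of the long non-coding Snhg15 (chr11:6528033-6528165, minus strand), had 72.2, 44.5 and 58.5 CPM in KO and 78.0, 59.7 and 84.1 CPM in WT. Snora34, in an intron of Kansl2 (chr15:98519716-98519853, minus strand), had 48.6, 55.7 and 66.0 CPM in KO and 65.9, 56.2 and 59.0 CPM in WT, and it was not low in KO replicate 2. Gm24233 had 57.7, 30.1 and 55.1 CPM in KO and 59.6, 52.6 and 68.2 CPM in WT. Its near copy Gm22786 had 34.4, 27.0 and 38.0 CPM in KO and 36.9, 31.9 and 39.7 CPM in WT, again lowest in KO replicate 2. Snora26, whose sequence differs more, had 15.8, 23.5 and 28.5 CPM in KO and 29.7, 18.4 and 23.1 CPM in WT, with KO replicate 1 lowest. Gm26079, at an exon-intron border of the chromatin remodeller gene Ep400 (chr5:110692049-110692181, minus strand), had 33.5, 18.3 and 29.3 CPM in KO and 37.3, 37.2 and 44.1 CPM in WT, with every KO library below every WT library.

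The host classes differed in how much was read. Members in coding hosts held 93.6% of member reads, those in long non-coding hosts 4.68% and those with no host 1.74%. Without Gm25117 these shares were 74.5%, 18.6% and 6.92%. The median of the members' mean CPM was 0.68 in coding hosts, 3.19 in long non-coding hosts and 0.0173 with no host, against 6.04 for H/ACA-length snoRNAs in ribosomal protein genes. The expression filter, about 10 reads in 3 libraries, passed 65 of 87 members in coding hosts (74.7%), 13 of 16 in long non-coding hosts (81.2%) and 11 of 56 with no host (19.6%), together 89 of 159 (56.0%). Of the 89, 79 lay above the filter's level of 0.202 CPM in all 6 libraries, 8 did so in every WT library but not in every KO library, and none the other way round. Many unhosted members resembled a more abundant one: 30 of the 56 were at least 80% identical to a member with more reads, against 70 of all 159.

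The 3 most abundant members with no annotated host differed widely in how steady they were. Snora43 (chr2:26637847-26637985, minus strand, 139 nt) had 41.2, 18.4 and 40.1 CPM in KO and 46.2, 50.1 and 54.4 CPM in WT, with no overlap between the genotypes. Snora17, nearby on the same strand (chr2:26639190-26639321), had 10.7, 11.8 and 11.6 CPM in KO and 13.1, 12.9 and 12.2 CPM in WT, the narrowest range of any tested member at 1.22-fold. Its genotypes did not overlap either. Snora57 (chr19:8888538-8888685, minus strand) had 37.9, 2.43 and 5.81 CPM in KO and 11.0, 15.2 and 32.1 CPM in WT, a 15.6-fold span with the genotypes overlapping. A second Snora43 feature of 127 nt overlaps the first one, so reads could have been split between them.

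No member passed the test between KO and WT. In edgeR's quasi-likelihood test with Benjamini-Hochberg adjustment over all 624 tested features, 0 of 89 members had an adjusted p under 0.05, against 1 of 624 features (0.160%). The smallest adjusted p of a member was 0.636. Without adjustment, 6 members had p under 0.05 with a lower level in KO and 1 with a higher level, where the shares over all features were 4.33% and 2.08%; DESeq2 also called none, with 5 at an unadjusted p under 0.05.

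The estimates leaned to lower levels in KO. The log2 fold change of KO over WT was below 0 for 76 of 89 members (85.4%), with a median of -0.30, while over all features it was below 0 for 369 of 624 (59.1%), with a median of -0.08. Of the 89, 8 lay above the filter's level in every WT library but not in every KO library, and none the other way round. These 8 could pass the filter on their WT libraries alone, and they are included in the counts given here. The classes had similar medians: -0.35 in coding hosts (56 of 65 below 0), -0.29 in long non-coding hosts (11 of 13) and -0.24 with no host (9 of 11). H/ACA-length snoRNAs in ribosomal protein genes had a median of -0.25, with 20 of 20 below 0, whereas C/D-length snoRNAs had a median of 0.03, with 63 of 143 below 0. In CPM, 21 members (23.6%) had every KO library below every WT library, where 12.5% of all features did, and 2 had every KO library above, where 2.72% of all features did. With TMM-scaled CPM the counts were 18, where 11.1% of all features did so, and 2, where 4.49% did.

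Most of this lean went when KO replicate 2 was left out. The members' median log2 fold change was then -0.06, with 53 of 92 tested members below 0, and the medians were -0.06 in coding hosts, -0.02 in long non-coding hosts and 0.06 with no host. Over all features the median without that library was 0.01, with 317 of 646 below 0. H/ACA-length snoRNAs in ribosomal protein genes then had a median of -0.06, with 15 of 20 below 0, and C/D-length snoRNAs a median of 0.09. The size of the members' median thus rested largely on 1 library. The count of members with every KO library below every WT library cannot fall when a KO library is left out. It therefore cannot show whether that pattern rested on 1 library. Among the same 89 it was 22 without KO replicate 2 (24.7%), where 15.4% of all features did so. In 2 members every KO library then lay above every WT library, where 3.53% of all features did so. Other scalings moved the members and all features by similar amounts: the members' median was -0.20 with RLE factors and -0.37 by library size alone, where the medians of all features were 0.02 and -0.16.

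**Figure D2:**
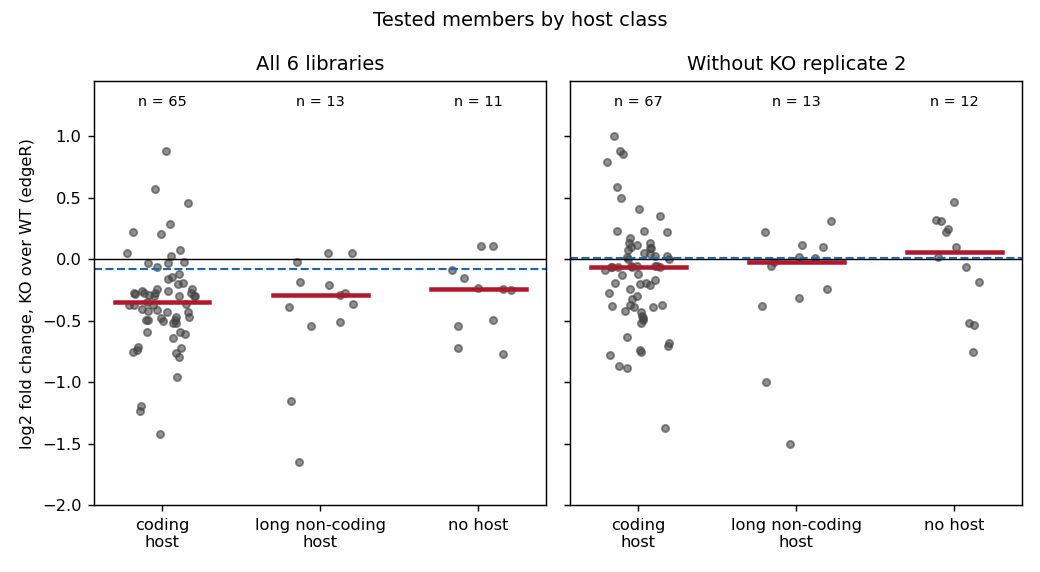
Log2 fold change of KO over WT for each tested member by host class (points), with the class median as a red bar and the median of all tested features as a dashed line. The left panel uses all 6 libraries and the right panel leaves out KO replicate 2. With all 6 libraries, points of all 3 classes lie mostly below 0, with medians of -0.35, -0.29 and -0.24, and the classes overlap. Without KO replicate 2 the medians are -0.06, -0.02 and 0.06.

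No abundant member passed the test, and most had overlapping genotypes. Gm25117 averaged 4100 ± 5190 CPM in KO and 3755 ± 2764 CPM in WT (SD, n = 3 each), a log2 fold change of 0.22 with a standard error (SE) of 1.06 (edgeR, adjusted p = 0.963); without KO replicate 2 it was 0.79. Gm22884 averaged 433 ± 185 CPM in KO and 548 ± 77.7 CPM in WT, with an estimate of -0.27 (SE 0.33), or 0.09 without KO replicate 2. Gm26130 averaged 111 ± 36.9 CPM in KO and 132 ± 8.85 CPM in WT, and its log2 fold change of -0.19 was 0.13 without that library. For Snora61 the estimate was -0.18 (SE 0.68), for Snora9 -0.27 (SE 0.25) and for Gm24233 -0.27 (SE 0.28), with values of 0.31, -0.05 and 0.04 without KO replicate 2. Snora43 at -0.54 (SE 0.32) and Gm26079 at -0.48 (SE 0.27) had the larger estimates, both at an adjusted p of 0.730 in edgeR, and they were -0.18 and -0.20 without KO replicate 2. Snora34 (-0.03, SE 0.18), Gm22786 (-0.06, SE 0.21), Snora26 (-0.02, SE 0.29) and Snora17 (-0.09, SE 0.20) had estimates close to 0, whose sign turned with the scaling.

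Of the 6 members with the smallest p-values, 5 had few reads and 5 had estimates below 0; none passed the adjusted threshold. The smallest p was that of Gm23639, in an intron of the long non-coding Epb41l4aos on the plus strand, with 24, 23 and 27 reads in KO libraries and 86, 41 and 50 reads in WT libraries. That was 0.503 ± 0.0640 CPM in KO and 1.17 ± 0.389 CPM in WT (SD, n = 3 each), with a log2 fold change of -1.15 (SE 0.32, edgeR unadjusted p 0.00990, adjusted p = 0.636). The genotypes did not overlap, and the estimate was -1.0 when KO replicate 2 was left out and -0.76 when WT replicate 1, its highest library, was.

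Snora41, in an intron of the translation elongation factor gene Eef1b2 (chr1:63179004-63179135, plus strand), had 10, 13 and 13 reads in KO and 24, 20 and 22 reads in WT. Its estimate was -0.79 (SE 0.26, edgeR unadjusted p 0.0199, adjusted p = 0.700), and -0.75 without KO replicate 2. Gm22303, in an intron of the kinase gene Rock2 (chr12:16939994-16940115, plus strand), had 56, 61 and 58 reads in KO and 137, 79 and 99 reads in WT, an estimate of -0.75 (SE 0.27, edgeR unadjusted p 0.0275, adjusted p = 0.710). Gm24355, in an exon of Hibadh (chr6:52639234-52639355, minus strand), had 13, 7 and 11 reads in KO and 40, 16 and 21 reads in WT, an estimate of -1.19 (SE 0.43). In KO replicate 2 Gm24355 lay below the filter's level, at 0.135 CPM against 0.202 CPM. Without KO replicate 2 the estimates were -0.68 for Gm22303 and -0.88 for Gm24355, and without WT replicate 1, the highest library of both, they were -0.48 and -0.70. Gm22303 and Gm24355 differ by a single edit (99.2% identity), so that reads of one could be counted at the other. Their family of 5, with Gm23451 in Top2a, Gm22358 and Gm23406, summed to 3.01, 3.74 and 4.25 CPM in KO and 8.67, 4.71 and 5.0 CPM in WT. The pair is printed with Snora41 and with Gm25635, the member of smallest p that was higher in KO.
Gm22303: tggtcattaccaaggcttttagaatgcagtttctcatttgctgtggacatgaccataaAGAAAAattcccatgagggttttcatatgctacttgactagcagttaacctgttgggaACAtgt
Gm24355: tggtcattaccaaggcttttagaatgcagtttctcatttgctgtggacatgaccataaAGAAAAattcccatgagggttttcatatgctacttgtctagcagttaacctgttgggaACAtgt
Snora41: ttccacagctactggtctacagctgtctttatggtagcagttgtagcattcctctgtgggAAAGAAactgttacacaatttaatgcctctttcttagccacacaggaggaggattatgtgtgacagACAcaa
Gm25635: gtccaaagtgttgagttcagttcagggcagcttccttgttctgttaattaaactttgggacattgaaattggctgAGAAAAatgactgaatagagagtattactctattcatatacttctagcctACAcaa

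Gm25635, in an intron of Stxbp5 (chr10:9852019-9852149, minus strand), ran the other way. It had 27, 31 and 25 reads in KO and 21, 14 and 13 reads in WT, so that every KO library lay above every WT library. It averaged 0.561 ± 0.0349 CPM in KO and 0.319 ± 0.0697 CPM in WT (SD, n = 3 each), with a log2 fold change of 0.88 (SE 0.29, edgeR unadjusted p 0.0189, adjusted p = 0.700) that stayed at 0.88 without KO replicate 2. Gm25635 was 93.1% identical to Gm26175 in Tmf1, which had 1244 reads, and 93.9% identical to Gm22247 in Nans. Reads of one could therefore be counted at another. Their family of 3 summed to 4.39 to 6.64 CPM in KO and 4.63 to 5.80 CPM in WT, with the genotypes overlapping. The other member with every KO library above every WT library was Gm25291 in Sec24a, a relative of Gm25117, with 0.598, 0.502 and 0.571 CPM in KO and 0.394, 0.419 and 0.453 CPM in WT. Gm25291 had 145 reads and was 92.4% identical to Gm25117, which had 1154213, so reads of Gm25117 could be counted at it. The family of both summed to 10058, 548 and 1699 CPM in KO and 1304, 3213 and 6751 CPM in WT, with the genotypes overlapping.

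Gm23262 was the most abundant member with p under 0.05. It lies at an exon-intron border of the translation factor gene Eif4g2 (chr7:111076060-111076227, minus strand), is 168 nt long, and has neither the ACA nor the H box. The exact C box and D box were not found in it either, so these motifs do not settle its class. It is shown here as the abundant member that does not look like the others. It had 17.4, 12.5 and 22.1 CPM in KO and 38.8, 24.8 and 25.2 CPM in WT, with no overlap. The log2 fold change was -0.71 (SE 0.29, edgeR unadjusted p 0.0464, adjusted p = 0.710). Leaving out KO replicate 2 gave -0.46, and leaving out WT replicate 1 gave -0.39.
Gm23262: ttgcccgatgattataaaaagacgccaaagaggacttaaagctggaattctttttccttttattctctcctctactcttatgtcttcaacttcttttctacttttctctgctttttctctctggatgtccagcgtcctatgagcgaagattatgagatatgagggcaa

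Libraries of the same genotype differed from each other, and the difference ran along with base composition. The tested members were split into 3 classes of near-equal size by the G and C content (GC) of their sequence: GC-poor at 31.9% to 43.7%, intermediate at 44.6% to 50.7% and GC-rich at 50.8% to 62.2%. KO replicate 1 over KO replicate 2, as a median log2 ratio, was 0.02 in the GC-poor class, 0.49 in the intermediate one and 1.29 in the GC-rich one. In the GC-rich class the median deviations were 0.29, -0.97 and -0.24 in the KO libraries and 0.22, 0.10 and 0.46 in the WT libraries. In the GC-poor class they were -0.27, -0.39 and 0.04 in KO and 0.41, 0.14 and 0.11 in WT. Thus KO replicate 1 and WT replicate 3 were high for GC-rich members, and KO replicate 2 was low for them.

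**Figure D3:**
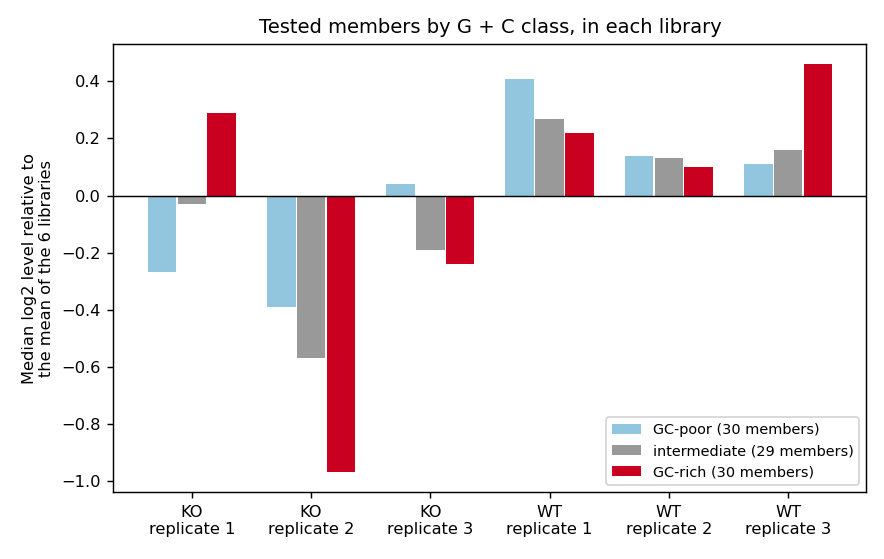
Bars give the median deviation of each library from the members' mean over the 6 libraries, on the log2(CPM + 0.02) scale, for the members in each GC class, with KO libraries left of WT libraries. KO replicate 2 lies at -0.39 in the GC-poor class and at -0.97 in the GC-rich one, while KO replicate 1 lies at -0.27 and at 0.29.

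Across the 89 tested members, Spearman's rho of GC with the log2 ratio of KO replicate 1 over KO replicate 2 was 0.54. It was 0.50 in coding hosts, 0.71 in long non-coding hosts and 0.55 with no host. The same measure was 0.43 for the 20 tested snoRNAs in ribosomal protein genes, 0.37 for 143 C/D-length snoRNAs and 0.15 for 622 features of all kinds. These are descriptions across snoRNAs of the same 2 libraries, which share library preparation and depth, and the members include near copies. Across the 89 members, GC had almost no relation to the log2 fold change of KO over WT, with a rho of 0.02. By class this rho was -0.12 in coding hosts, 0.17 in long non-coding hosts and 0.45 for the 11 with no host. It was -0.24 for snoRNAs in ribosomal protein genes, -0.22 for C/D-length snoRNAs and -0.14 for features of all kinds. Length had a rho of 0.23 with the ratio of the 2 KO libraries across the members. By host class it was 0.31 in coding hosts, -0.33 in long non-coding hosts and 0.39 with no host. The length rho was 0.41 for snoRNAs in ribosomal protein genes and 0.15 for C/D-length snoRNAs. For features of all kinds it was 0.42, above the 0.15 of GC. Whether GC content or length set these ratios was not tested.

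**Figure D4:**
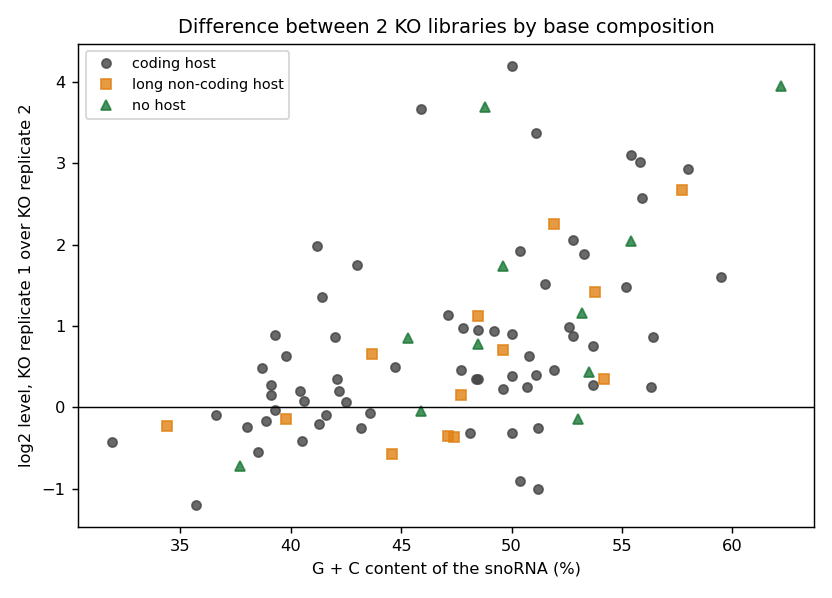
GC content of each tested member in percent against its log2 ratio of KO replicate 1 over KO replicate 2. The ratio spreads widely at every GC content, around a median of 0.02 among GC-poor members and of 1.29 among GC-rich ones, and reaches 3.95 for Snora57, with Gm25117 at 4.20 for a GC content of 50%.

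Sequences from both ends of this range are shown because they carry the contrast. Snora57 is the richest in GC of all tested members (62.2%), and its level was 15.6-fold higher in KO replicate 1 than in KO replicate 2. Gm24620, in an intron of Kif13a (chr13:46767520-46767649, minus strand, 55.4% GC), had 6.15, 0.694 and 1.48 CPM in KO and 2.03, 2.18 and 6.68 CPM in WT, high in the same 2 libraries as Gm25117. Gm25776, in an intron of the transcription factor gene Gtf2a1 (chr12:91573430-91573572, minus strand, 35.7% GC), had 3.55, 8.20 and 8.35 CPM in KO and 11.9, 9.23 and 6.68 CPM in WT, with KO replicate 1 lowest. Snora34, at 41.3% GC, was also lowest in KO replicate 1. Gm24620 and Gm25776 were chosen after their values were seen.
Snora57: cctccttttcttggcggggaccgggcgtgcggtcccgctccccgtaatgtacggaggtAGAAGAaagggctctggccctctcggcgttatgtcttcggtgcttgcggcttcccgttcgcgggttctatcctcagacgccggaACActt
Gm24620: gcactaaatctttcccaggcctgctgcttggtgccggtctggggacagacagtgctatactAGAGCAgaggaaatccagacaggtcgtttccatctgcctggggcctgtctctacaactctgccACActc
Gm25776: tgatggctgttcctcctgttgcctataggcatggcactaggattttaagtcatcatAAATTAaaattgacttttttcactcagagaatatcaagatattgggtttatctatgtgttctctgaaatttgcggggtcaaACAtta
Snora34: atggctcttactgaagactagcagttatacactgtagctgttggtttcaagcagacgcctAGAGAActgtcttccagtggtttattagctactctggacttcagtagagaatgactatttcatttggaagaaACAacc

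Base composition did not line up with every member. Over the 89 members, 26 were more than 2-fold higher in KO replicate 1 than in KO replicate 2, and 25 were lower. Gm25117 had the largest such ratio, 18.4-fold, at a middling GC of 50%, and Snora17 at 53% hardly varied. Gm24313, in an intron of Tbrg4 and chosen after its values were seen, followed another order: 24, 6 and 151 reads in KO and 295, 180 and 38 reads in WT, a 47.8-fold span in CPM, the widest of any tested member. Its log2 fold change of -1.42 had an SE of 1.14. The median span over the 6 libraries was 2.27-fold for members, against 1.48-fold for C/D-length snoRNAs, 1.95-fold for those in ribosomal protein genes and 2.26-fold for all features.

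The members inside Snhg12 did not vary together. The gene holds Snora61, Snora44 and 2 overlapping Snora16a features, all in annotated exons. Snora44 (chr4:132309941-132310069), assigned in human to small-subunit ribosomal RNA, had 14.8, 3.09 and 5.18 CPM in KO and 12.8, 4.89 and 10.7 CPM in WT. The longer Snora16a feature (chr4:132309464-132309600) had 6.72, 8.62 and 10.3 CPM in KO and 11.5, 7.56 and 6.77 CPM in WT, with KO replicate 1 lowest of all. The shorter feature, which overlaps it, had nearly the same levels. The ratio of Snora61 reads to Snora16a reads was 29.2, 3.57 and 6.99 in KO and 7.61, 11.3 and 27.3 in WT, so that the genotypes overlapped. None of them passed the test: the log2 fold changes were -0.18 for Snora61, -0.21 (SE 0.65) for Snora44 and 0.05 for each Snora16a feature. Without KO replicate 2 they were 0.31, 0.22, and 0.10 and 0.12 for the 2 Snora16a features. Snora61 is 57.7% GC, Snora44 51.9% and Snora16a 47.4%, the same order as their ratios of KO replicate 1 to KO replicate 2.
Snora16a: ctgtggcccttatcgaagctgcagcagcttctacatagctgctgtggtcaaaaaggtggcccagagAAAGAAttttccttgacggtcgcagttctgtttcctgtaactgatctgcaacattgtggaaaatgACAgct
Snora44: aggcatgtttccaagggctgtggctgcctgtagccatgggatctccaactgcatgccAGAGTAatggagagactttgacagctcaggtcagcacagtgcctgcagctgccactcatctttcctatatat

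Taf1d, a protein-coding gene for a subunit of the RNA polymerase I factor SL1, holds 5 members, at 37.4% to 49.6% GC. All are poorer in GC than Snora61 and Snora44, but Gm24455 at 49.6% is richer than Snora16a at 47.4%. Gm24455 had 6.97, 5.92 and 9.24 CPM in KO and 13.3, 9.78 and 9.53 CPM in WT, with no overlap and a log2 fold change of -0.50 (SE 0.26, edgeR adjusted p = 0.730). Gm22579, whose sequence is identical to that of Gm24539, had 0.681, 0.559 and 0.634 CPM in KO and 1.01, 0.903 and 1.08 CPM in WT, an estimate of -0.61 (SE 0.26, edgeR unadjusted p 0.0493, adjusted p = 0.710). With the reads of its identical copy added, the estimate of Gm22579 was -0.26 (edgeR adjusted p = 0.775). Without KO replicate 2 the estimates were -0.30 for Gm24455 and -0.48 for Gm22579, and Gm24455 was at -0.24 without WT replicate 1. Gm25791 (-0.16) and Gm22620 (-0.24) had smaller estimates with overlapping genotypes, and each was at -0.05 without KO replicate 2. Gm25500 had 0, 5 and 4 reads in KO and 4, 5 and 5 reads in WT and was not tested. Summed over the host, the level was 15.2, 14.2 and 20.1 CPM in KO and 24.4, 21.7 and 19.6 CPM in WT. Unlike in Snhg12, KO replicates 1 and 2 lay close together here.

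**Figure D5:**
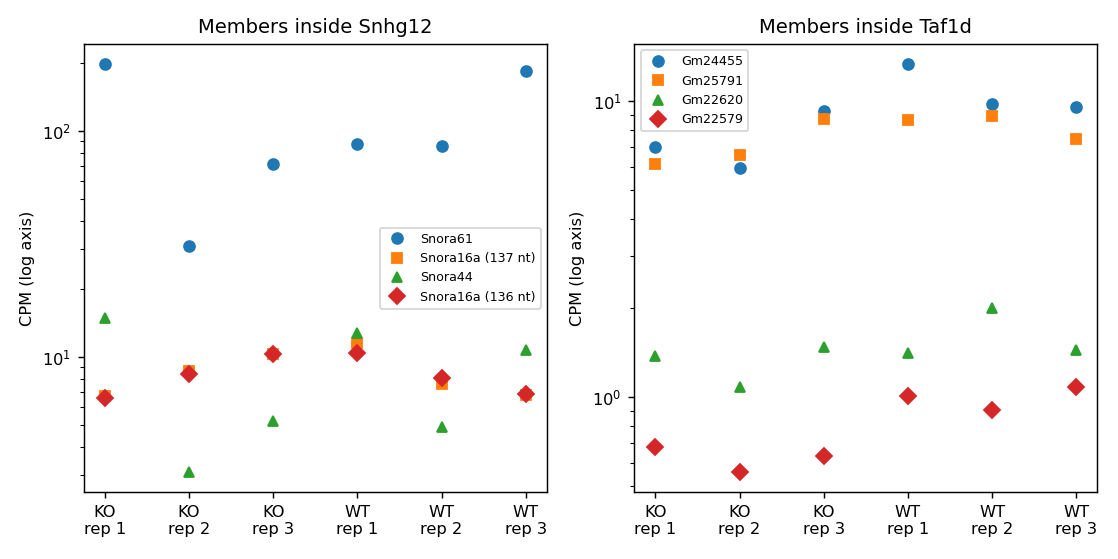
Levels of members that share a host, Snhg12 and Taf1d, in each library as CPM on a log axis, with KO libraries left of WT libraries; Gm25500 is not drawn because it had 0 reads in KO replicate 1. In Snhg12, Snora61 reaches 197 CPM in KO replicate 1 and 30.8 CPM in KO replicate 2, while Snora16a has 6.72 and 8.62 CPM there.

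Near copies in different hosts could be set against this. Gm24233 in Mia2 and Gm22786 in Psmd1 were both lowest in KO replicate 2, next lowest in WT replicate 2 and highest in WT replicate 3. The family of Gm24620 in Kif13a, Gm22154 and Gm25788 in Pabpc4, and Gm23974 summed to 7.01, 0.868 and 1.88 CPM in KO. In WT the sums were 2.83, 2.84 and 8.04 CPM. Gm24620 held 81.8% of that family's reads, so the sum had to follow it. Gm22154 had 0.722, 0.0772 and 0.317 CPM in KO and 0.507, 0.374 and 1.10 CPM in WT. Gm25788, with 49 reads, had 0.103, 0.0965 and 0.0634 CPM in KO and 0.300, 0.220 and 0.197 CPM in WT. Snora57 with its relative Gm26132 (95.9% identity) summed to 40.0, 3.13 and 7.25 CPM in KO and 12.6, 16.9 and 34.6 CPM in WT. Snora57 held 91.2% of those reads. The family of Snora17, with the paired Gm25053 and Gm25617 features, varied little, at 12.2, 13.3 and 13.2 CPM in KO and 15, 14.8 and 13.5 CPM in WT. Every KO sum of that family lay below every WT sum, and Snora17 held 88.2% of its reads. Sums so dominated by 1 member cannot show whether copies in other hosts varied alike. Members of a family share sequence, so their reads could have been assigned to one another.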

How the data were processed

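Small RNA libraries of 3 KO and 3 WT samples were grouped by their titles. Per the labels' protocols, RNA was extracted with Trizol, ligated with a small RNA kit from NEB and size-selected on a gel for snoRNA inserts, which decides what lengths can be seen. Per the submitters' processing notes, Trimmomatic 0.38, Bowtie2 2.3.4.1 and GRCm38 were used. The sources used here do not name the counter, its annotation, the strand setting or the handling of reads with several matches. The authors deposited raw counts of reads per feature, listed from 1 read upwards, and a missing feature was set to 0.

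Features were matched by position to GENCODE M21 on GRCm38 (1822 of 1823), and 140 members also matched a RefSeq name. A host is a same-strand gene that contains the member. Where a coding and a long non-coding host both fitted (2 members), the member was put in the coding class, and Cct6a counted as non-coding because GENCODE types it so. The members and lists were chosen with earlier results of these data known.

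Counts were tested with edgeR 4.0.16 in R 4.3.3 (quasi-likelihood, TMM, minimum count 10, minimum total 15, KO against WT, two-sided, Benjamini-Hochberg over 624 features, threshold 0.05). The standard error is the size of the log2 fold change over the square root of F. The fit was tested on simulated data. Members were named by rule: the 12 highest by mean CPM, the 3 highest of each host class, the 6 smallest p-values and all members of hosts holding at least 3. Counting error alone would allow up to 3 reads where none was listed, 0.0563 to 0.0661 CPM in a library. Alternatives were RLE factors, library size alone, no filter, a filter of 50 counts in 3 libraries, DESeq2 1.42.0, summed copies, a replicate block and leaving out each library.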

Additional observations from a re-analysis of the deposited data

How the results depend on the processing

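No member was called under any alternative, and the smallest adjusted p of a member ran from 0.191 (without KO replicate 1) to 0.969 (without KO replicate 2). With 3 libraries a genotype, the count of lower estimates was 76 of 89 in the fit as reported and 48 of 58 with at least 50 counts in 3 libraries. Leaving out each library in turn gave member medians between -0.52 and -0.06, with -0.06 without KO replicate 2. The median ran between -0.41 and -0.06 in coding hosts, between -0.55 and -0.02 in long non-coding hosts and between -0.63 and 0.06 with no host. The count of lower estimates ran between 53 and 75. The log2 ratio of summed CPM was 0.01 and ran between -1.31 (without KO replicate 1) and 0.54 (without WT replicate 3); it was -0.33 without Gm25117. Leaving Gm25117 out also changed the shares of member reads, to 74.5% in coding hosts, 18.6% in long non-coding hosts and 6.92% with no host. Leaving out KO replicate 2 gave 22 members with every KO library below every WT library, against 21 with all libraries. This count cannot fall when a library is left out. These alternatives without Gm25117, and the last count, were chosen after seeing the data. The cause of these shifts was not tested.

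Named members with estimates near 0 turned sign. Snora34 was 0.08 with RLE factors and with DESeq2, 0.03 with no filter and 0.05 with the stricter filter and with copies summed. Snora26 was 0.09, 0.09, 0.04, 0.06 and 0.06 in the same order. Gm22786 was 0.04 with RLE factors and DESeq2 and 0.01 with the stricter filter and copies summed. Snora17 was 0.01 with RLE factors and DESeq2, and both Snora16a features were -0.01 by library size alone. Leaving out each library gave ranges of -1.65 to 1.04 for Gm25117, -0.54 to 0.09 for Gm22884, -0.30 to 0.13 for Gm26130, -1.12 to 0.37 for Snora61, -0.06 to 0.14 for Snora34, -0.38 to 0.04 for Gm24233, -0.09 to 0.13 for Gm22786, -0.12 to 0.26 for Snora26, -2.13 to 0.41 for Snora57, -0.06 to 0.02 for Snora17, -1.08 to 0.22 for Snora44, -0.25 to 0.00 for Gm25791 and -0.25 to 0.02 for Gm22620. The 2 Snora16a features ran from -0.02 to 0.40 and from -0.03 to 0.32. Among members whose sign did not turn, leaving out WT replicate 1 gave the smallest size for Gm23639 (-0.76), Gm24355 (-0.70), Gm22303 (-0.48), Gm23262 (-0.39) and Gm24455 (-0.24), and summing copies gave -0.26 for Gm22579.

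With the replicate number as a block, the members' median was -0.44, 80 of 89 estimates were below 0, Gm25117 was at -0.87 and none was called. Libraries that share a number had correlated deviations of -0.13, 0.40 and -0.36, and not every library correlated best with its own number, so the numbers were not taken to pair the samples.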
